A study of Mus musculus with 6 samples.

Results

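The transcripts of 10 genes that serve antigen presentation by MHC class II were measured in blood neutrophils sorted into Ly6C-high and Ly6C-low cells. The genes were taken by name from the 35853 genes of the transcript tables: H2-Aa, H2-Ab1 and H2-Eb1, which encode chains of the class II molecules themselves, Cd74, H2-DMa, H2-DMb1, H2-DMb2, H2-Oa, H2-Ob and Ciita. The H2 genes lie on chromosome 17, Ciita on chromosome 16 and Cd74 on chromosome 18. The cells came from BALB/C mice of wild-type genotype bearing tumours of 4T1, a mammary carcinoma line of mouse, placed orthotopically 4 weeks before the blood was taken. After lysis of red cells, Ly6G+ cells were sorted by surface Ly6C, and poly(A) RNA was sequenced from 3 Ly6C-high and 3 Ly6C-low libraries. Both groups came from tumour-bearing mice, and cells of tumour-free mice were not analysed here. Nothing in the labels ties each library to its own mouse, so the spread behind the p-values may be technical.

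The class II molecule is an alpha and a beta chain that assemble in the endoplasmic reticulum around the invariant chain, the product of Cd74. The invariant chain blocks the peptide groove and carries the complex to endosomes, where proteases trim it to a short remnant. H2-DM, a non-classical class II molecule, exchanges the remnant for antigenic peptide, and H2-O restrains H2-DM. Expression rests on CIITA, a coactivator without DNA binding of its own that joins RFX, CREB and NF-Y proteins on the X and Y boxes of class II promoters. B cells, dendritic cells and macrophages are the usual presenting cells in blood and tissue, and resting neutrophils are known for low class II.

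Promoter sequences of H2 members are shown because the X and Y boxes are the regulatory feature that class II genes are known to share. Promoters from RefSeq on build GRCm38.p6 were matched by symbol for 7 of the 10 members, with 8 start sites. In the 250 bases before the start, ATTGG, the core of the Y box, was found on either strand in 7 of the 8 member promoters and in 33.8% of all 32851 promoters. The promoter without it was 1 of the 2 of H2-DMa. ACNGATG, the form of the X box core that was searched for, was found in 5 of the 8 member promoters and in 8.31% of all promoters, again on either strand. ACNGATG followed by ATTGG within 30 bases on 1 strand was found in 3 of the 8, those of H2-Eb1, H2-DMb1 and H2-DMb2, and in 0.21% of all promoters. The 2 motifs cannot overlap. Each stretch below is 60 bases, 5′ to 3′ on the strand of the gene, with matches to the 2 motifs in capitals.
H2-Eb1, chr17:34305758-34305817, plus strand: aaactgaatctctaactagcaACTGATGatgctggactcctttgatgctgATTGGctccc
H2-DMb1, chr17:34153080-34153139, plus strand: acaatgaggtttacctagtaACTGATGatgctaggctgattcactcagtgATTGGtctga
H2-DMb2, chr17:34145109-34145168, plus strand: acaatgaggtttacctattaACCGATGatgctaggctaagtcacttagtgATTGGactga
H2-Aa, chr17:34287862-34287921, minus strand: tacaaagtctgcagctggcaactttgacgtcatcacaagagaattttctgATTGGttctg
H2-Ob, chr17:34238798-34238857, plus strand: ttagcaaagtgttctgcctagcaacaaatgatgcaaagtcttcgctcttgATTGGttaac
H2-Oa, chr17:34092286-34092345, plus strand: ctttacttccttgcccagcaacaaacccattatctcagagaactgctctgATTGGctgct
The gap between the motifs was 22 bases in H2-Eb1 and 23 bases in H2-DMb1 and H2-DMb2. The ATTGG began 59, 61, 90, 48, 57 and 43 bases before the start in H2-Eb1, H2-DMb1, H2-DMb2, H2-Aa, H2-Ob and H2-Oa. In H2-DMa it began 198 bases before 1 of its starts, which is not shown. The ACNGATG of H2-Oa lies outside the stretch shown. Matches are letters in a reference sequence and were not measured as bound sites. Only these exact letters were searched, so a promoter without a match was not shown to lack an X box.

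Class II transcripts were scarce in both groups, and no member differed between them past the test. Summed over the 10 genes, the level was 16.6, 22.6 and 16.3 TPM (transcripts scaled to a common total after correction for length) in Ly6C-high replicates 1, 2 and 3, and 15.2, 17.8 and 16.3 TPM in Ly6C-low replicates 1, 2 and 3. For scale, B2m, the light chain of class I molecules, lay between 1440 and 1740 TPM in the same libraries. Of the 10 members 7 had enough counts for the test, and H2-DMb1, H2-Oa and Ciita did not pass the filter on low counts. With edgeR's quasi-likelihood test 0 of the 7 passed an adjusted p of 0.05, where 0.0351% of the 11406 genes tested did. limma voom also called 0 of the 7, and DESeq2, which gave an adjusted p to Cd74 alone, did not call it. At an unadjusted p under 0.05 there were 0 of the 7 with each of the 3 tools, where 14.3% of all genes tested had one with edgeR. A p that misses the threshold does not show that levels were equal. The log2 fold change of Ly6C-high over Ly6C-low lay above 0 in 6 of the 7, with a median of 0.33. Over all genes tested 49.2% lay above 0 and the median was 0.00. Without Ly6C-high replicate 2 the fold change lay above 0 in 4 of the 7, with a median of 0.10, and without Ly6C-low replicate 2 in 7 of the 7, with a median of 0.19. In bulk RNA, a change in the number of cells that carry a transcript and a change in the amount per cell cannot be told apart.

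Cd74 was the most abundant member, and the other members followed at a distance in TPM. Its level was 8.04 ± 0.769 TPM (SD, n = 6 libraries), with 52.2% of the genes tested below it. H2-DMb2 came next at 2.23 ± 0.586 TPM, so that Cd74 stood 3.61-fold above it, and in 6 of 6 libraries Cd74 was the higher of the pair. From there to H2-DMa the order was H2-Aa at 2.14 ± 0.915, H2-Eb1 at 1.65 ± 0.749, H2-Ab1 at 1.31 ± 0.446 and H2-DMa at 1.07 ± 0.516 TPM, and the ranges of neighbours in that order overlapped. H2-Ob at 0.464 ± 0.208 TPM and H2-DMb1 at 0.369 ± 0.24 TPM formed a lower pair, also with overlapping ranges. H2-Oa at 0.0959 ± 0.0648 and Ciita at 0.0816 ± 0.0328 TPM were the lowest and did not differ beyond their spread. Only between Cd74 and H2-DMb2 were neighbouring ranges apart.

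**Figure D1:**
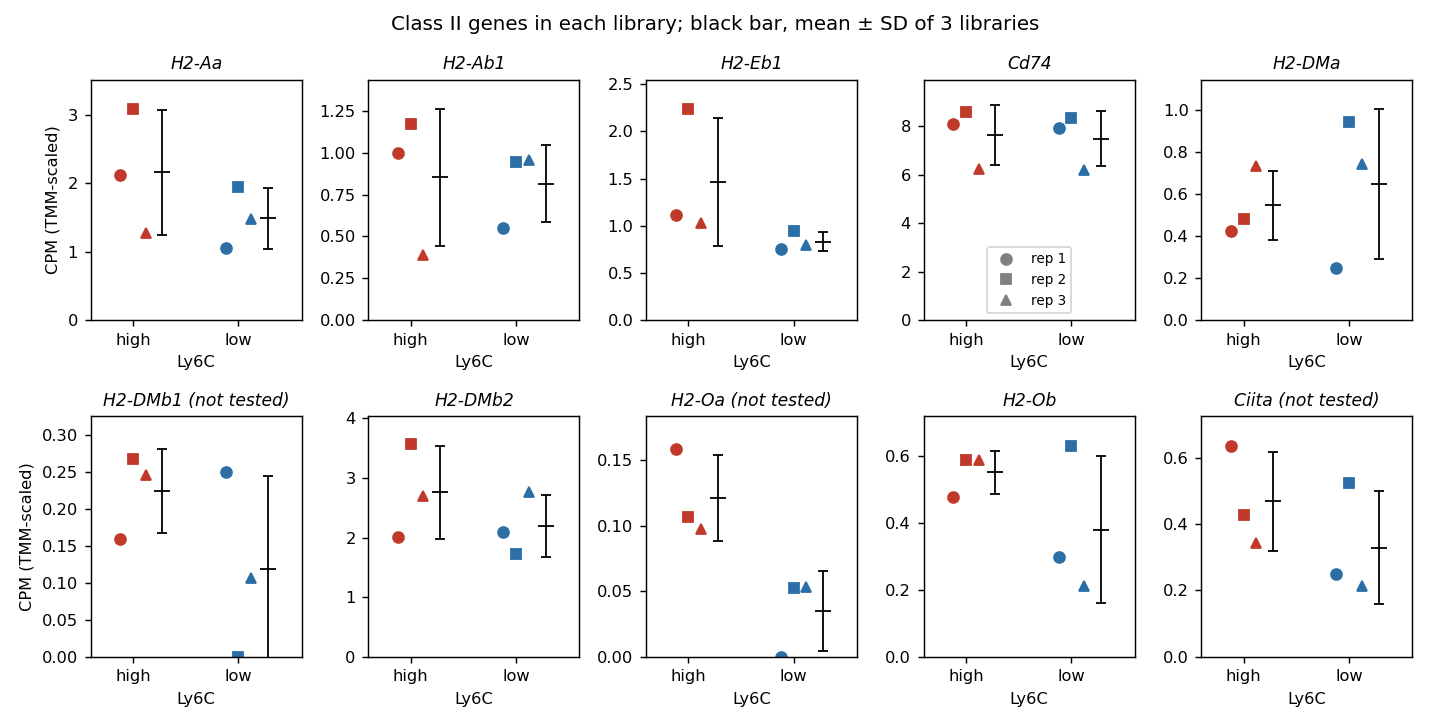
TMM-scaled CPM of the 10 class II genes in each library, with Ly6C-high in red and Ly6C-low in blue; symbols mark the replicate and the black bar gives the mean and SD of 3 libraries. The groups overlap in 8 of the 10 panels, and H2-Eb1 and H2-Oa are the 2 in which every Ly6C-high library lies above every Ly6C-low library. Of all genes tested 10.3% were apart in that direction. H2-Oa was not tested and had at most 3 counts in any library.

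The 3 genes of the classical class II chains were each measured from few counts, and the values of 1 of them, H2-Eb1, did not overlap between the groups. H2-Aa, the alpha chain of the I-A molecule, had 40, 58 and 26 counts in Ly6C-high and 21, 37 and 28 counts in Ly6C-low replicates 1, 2 and 3. In CPM (counts scaled to the TMM library size) these were 2.12, 3.09 and 1.27 against 1.05, 1.94 and 1.48. Ly6C-high replicates 1 and 2 were the highest of the 6 libraries, and Ly6C-high replicate 3 lay within the Ly6C-low range. The means were 2.16 ± 0.911 and 1.49 ± 0.445 CPM (SD, n = 3 each), with a log2 fold change of 0.53 ± 0.36 (SE) and an edgeR adjusted p of 0.537. The 95% interval of the fold ran from 0.839 to 2.49, so a 2-fold difference was within what these libraries allow.

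H2-Ab1, the beta chain that pairs with the H2-Aa product, had 19, 22 and 8 counts in Ly6C-high and 11, 18 and 18 in Ly6C-low replicates 1, 2 and 3. Its levels were 1.00, 1.17 and 0.392 CPM against 0.549, 0.943 and 0.955 CPM. The highest and the lowest library of this gene were both Ly6C-high. The log2 fold change was 0.06 ± 0.45 (SE), the edgeR adjusted p was 0.964, and the 95% interval of the fold ran from 0.527 to 2.07.

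H2-Eb1, the beta chain of the I-E molecule, had 21, 42 and 21 counts in Ly6C-high and 15, 18 and 15 counts in Ly6C-low replicates 1, 2 and 3. The levels were 1.11, 2.24 and 1.03 CPM against 0.749, 0.943 and 0.796 CPM. All 3 Ly6C-high libraries lay above all 3 Ly6C-low libraries, with Ly6C-high replicate 2 far above the rest. Such a separation upward was seen in 1 of the 7 members tested and in 10.3% of all genes tested. The means were 1.46 ± 0.677 and 0.829 ± 0.101 CPM (SD, n = 3 each). The log2 fold change of 0.81 ± 0.38 (SE) was the largest of the 7 and did not pass edgeR's test (unadjusted p 0.0551, adjusted p 0.359). Its 95% interval was -0.02 to 1.64. Without Ly6C-high replicate 2 the log2 fold change was 0.36, with an adjusted p of 0.811. Some monocyte markers, among them Cx3cr1 and Ms4a6c, also lay higher in the Ly6C-high libraries. Of the 12 monocyte and macrophage markers tested, 7 had a log2 fold change above 0 and 5 below. The sum of that list ran the other way, at 399 to 420 CPM in Ly6C-high and 457 to 489 CPM in Ly6C-low libraries. Further values are given beside the other cell markers. The part of monocytes in H2-Eb1 was not tested.

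Most H2-Eb1 counts were not assigned to a transcript annotated as protein-coding. Over the 6 libraries 45.1% of them lay on a transcript annotated for nonsense-mediated decay, 37.4% on transcripts with a retained intron and 17.5% on protein-coding transcripts. On the protein-coding transcripts alone there were 5.6, 4.0 and 0.0 counts in the Ly6C-high and 0.0, 3.0 and 10.5 in the Ly6C-low libraries. These values overlap, and the highest is Ly6C-low replicate 3. H2-Ob also had 73.2% of its counts on a retained-intron transcript, whereas the coding share was 95.2% for H2-Aa, 98.5% for H2-Ab1 and 97.2% for Cd74. The coding share was 29.4% for H2-DMb1, 67.5% for H2-DMa, 97.9% for Ciita and 100.0% for H2-DMb2 and H2-Oa. kallisto divides reads among overlapping transcripts by estimation, and at counts this low the division is uncertain. BALB/C mice carry the d haplotype of H2 and the reference genome the b haplotype, and the effect of that difference on the assignment of reads was not tested.

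The alpha chain partner of H2-Eb1 is named H2-Ea-ps in the annotation, because the b haplotype of the reference strain has lost it, while the d haplotype keeps a working gene. Its transcripts were present at 0.899, 1.71 and 0.685 CPM in Ly6C-high and 0.449, 1.31 and 1.75 CPM in Ly6C-low replicates 1, 2 and 3. The groups overlapped, with a log2 fold change of -0.09 and an edgeR adjusted p of 0.952. H2-Eb2, a second E beta gene, had at most 0.0529 CPM in any library.

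Cd74 was the member measured most precisely, and its levels in the groups lay close together. The invariant chain gene had 153, 161 and 127 counts in Ly6C-high and 159, 159 and 117 counts in Ly6C-low replicates 1, 2 and 3, which were 8.09, 8.59 and 6.22 CPM against 7.94, 8.33 and 6.20 CPM. In both groups replicate 2 was the highest library and replicate 3 the lowest. The means were 7.63 ± 1.25 and 7.49 ± 1.13 CPM (SD, n = 3 each), a log2 fold change of 0.02 ± 0.18 (SE) and an edgeR adjusted p of 0.964. The 95% interval of the fold, 0.778 to 1.33, left out a change of 1.5-fold in either direction. Cd74 alone held between 41.8% and 59.1% of the counts of the 10 members in each library. Between 6.08% and 39.8% of its counts were assigned to a coding transcript of 1410 bases and between 44.9% and 93.9% to one of 1224 bases, with the groups overlapping for both.

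**Figure D2:**
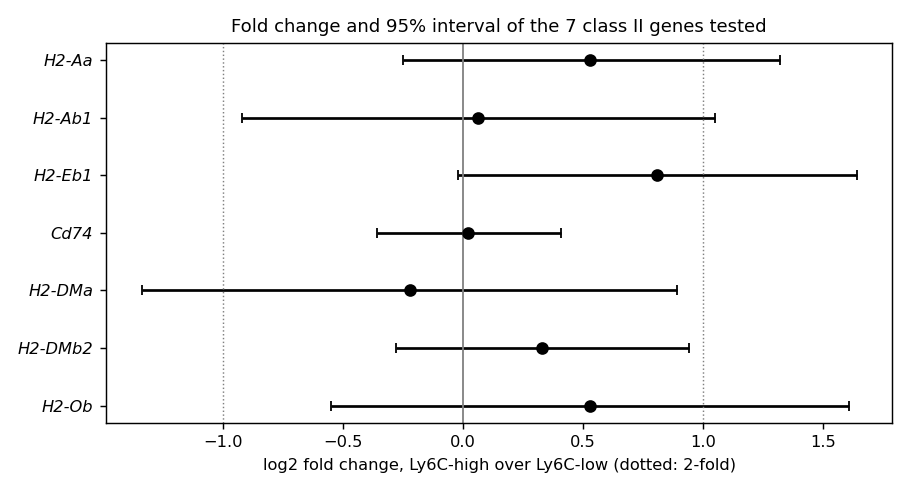
Log2 fold change of Ly6C-high over Ly6C-low for the 7 class II genes tested, with the 95% interval from edgeR's fit; dotted lines mark a 2-fold change. Every interval includes 0, and the Cd74 interval, from -0.36 to 0.41, is the narrowest.

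The peptide exchange factor H2-DM had most of its beta chain transcripts from H2-DMb2, which stood above the other beta chain gene, H2-DMb1, in TPM. H2-DMb2 had 38, 67 and 55 counts in Ly6C-high and 42, 33 and 52 counts in Ly6C-low replicates 1, 2 and 3, or 2.01, 3.57 and 2.69 against 2.10, 1.73 and 2.76 CPM. The highest library was Ly6C-high replicate 2 and the lowest Ly6C-low replicate 2, and the groups overlapped. The log2 fold change was 0.33 ± 0.28 (SE), with an edgeR adjusted p of 0.626 and a 95% interval of the fold from 0.824 to 1.92. H2-DMb1 had 3, 5 and 5 counts against 5, 0 and 2. Its sums of 13 and 7 counts give a ratio of 1.85 with a counting interval of 0.687 to 5.48 (exact, conditional on the total), which leaves the direction undetermined. The 2 genes share 257 words of 31 bases, 25.0% of those in H2-DMb1 and 20.6% of those in H2-DMb2, so some reads fit both. With their counts added the log2 fold change was 0.37 and the adjusted p 0.568.

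H2-DMa, the alpha chain of H2-DM, had 8, 9 and 15 counts in Ly6C-high and 5, 18 and 14 counts in Ly6C-low replicates 1, 2 and 3. It was the 1 member tested with a log2 fold change below 0, at -0.22 ± 0.51 (SE) with an edgeR adjusted p of 0.872. The values were 0.423, 0.480 and 0.734 against 0.250, 0.943 and 0.742 CPM, with both the highest and the lowest among the Ly6C-low libraries. Exons of Brd2 on the opposite strand cover 10.4% of the H2-DMa exon bases, and Brd2 had between 3108 and 3785 counts per library. The strand setting of kallisto is not given in the sources used here, so reads of the shared stretch cannot be told apart.

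H2-O, the inhibitor of H2-DM, was near the limit of detection. H2-Ob, its beta chain, had 9, 11 and 12 counts in Ly6C-high and 6, 12 and 4 counts in Ly6C-low replicates 1, 2 and 3, with a log2 fold change of 0.53 ± 0.49 (SE) and an edgeR adjusted p of 0.662. The Ly6C-high libraries lay close together at 0.476, 0.587 and 0.588 CPM, inside the Ly6C-low values of 0.299, 0.629 and 0.212 CPM. H2-Oa, the alpha chain, had 3, 2 and 2 counts against 0, 1 and 1. Every Ly6C-high library was above every Ly6C-low library, by a difference of 1 to 3 counts. The sums of 7 and 2 counts give a ratio of 3.49 with a counting interval of 0.665 to 34.4, so a difference was not detectable at this depth. A count of 0 allows up to 3 counts, or 0.150 CPM in Ly6C-low replicate 1, which is no less than the levels of Ly6C-high replicates 2 and 3. Without the filter on low counts the log2 fold change of H2-Oa was 1.62 with an edgeR adjusted p of 0.702. Exons of BC051537, an antisense gene on the opposite strand, cover 22.8% of the H2-Oa exon bases. The part of its reads in the H2-Oa counts was not tested.

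Ciita, the coactivator of the whole set, was measured at 12, 8 and 7 counts in Ly6C-high and 5, 10 and 4 counts in Ly6C-low replicates 1, 2 and 3. The levels were 0.635, 0.427 and 0.343 against 0.250, 0.524 and 0.212 CPM, and the groups overlapped. The sums of 27 and 19 counts give a ratio of 1.42 with a counting interval of 0.759 to 2.70. Without the filter its log2 fold change was 0.49 with an edgeR adjusted p of 0.77. Dexi, on the opposite strand, shares 3.5% of the exon bases of Ciita and had between 24 and 47 counts per library. Intervals on counts cover counting error only, since the reads carry no molecular identifiers.

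The factors that act with CIITA all stood above Ciita in mean TPM, from 0.137 TPM for Irf8 to 812 TPM for Spi1, the gene of PU.1. Over the 16 regulators of class II transcription the median level was 18.3 TPM, with 4 of the 16 under 1 TPM, against a median of 1.19 TPM over the 10 members. Rfxap and Rfxank, subunits of RFX, stood at 13.2 and 6.04 TPM and Rfx5, the subunit that binds DNA, at 0.523 TPM. Of the 14 regulators tested 0 passed edgeR's adjusted p of 0.05, and 2 were higher at an unadjusted p under 0.05, where 6.92% of all genes tested were. These were the NF-Y subunit genes Nfyb and Nfya, which bind the Y box. Nfyb measured 36.2, 35.7 and 36.1 CPM in Ly6C-high and 29.8, 32.8 and 29.8 CPM in Ly6C-low replicates 1, 2 and 3, and its groups did not overlap (fold 1.17, 95% interval 1.02 to 1.34, adjusted p 0.309). Nfya measured 43.4, 47.2 and 47.0 against 41.5, 39.1 and 38.2 CPM, also without overlap (fold 1.16, adjusted p 0.322). The remaining NF-Y subunit gene, Nfyc, had 28.1 ± 1.97 against 32.1 ± 1.48 CPM, with a fold of 0.874 and an adjusted p of 0.399. Creb1, which binds the X2 part of the X box, had a fold of 1.21 and an adjusted p of 0.368. The median log2 fold change of the 14 was 0.05.

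Endosomal genes of the pathway were mostly abundant in these cells. The list of 24 names, 2 of them given under an older and a newer symbol, held 22 matched genes with a median of 66.9 TPM. Of these 21 were tested and 0 passed with edgeR. At an unadjusted p under 0.05 there were 2 of the 21 higher in Ly6C-high, where 6.92% of all genes tested were. The aspartic protease gene Ctsd stood at 1310 TPM, and Ctss, the cathepsin that makes the last cut in the invariant chain in presenting cells, at 44.0 TPM. Ctss measured 46.8, 38.7 and 42.2 CPM in Ly6C-high and 53.7, 43.5 and 52.2 CPM in Ly6C-low replicates 1, 2 and 3, with a fold of 0.854 and an adjusted p of 0.374. Cd9, a tetraspanin, measured 344, 368 and 336 against 290, 321 and 236 CPM, without overlap (fold 1.24, 95% interval 1.04 to 1.47, edgeR adjusted p 0.281). Ctsh, an aminopeptidase, measured 61.6, 66.9 and 61.1 against 55.6, 55.8 and 52.2 CPM, again without overlap (fold 1.16, adjusted p 0.311). Groups failed to overlap in either direction in 21.1% of all genes tested, against 2 of these 21. March1, a ubiquitin ligase that removes class II from the surface, stood at 71.9 TPM, with 214 ± 16.2 CPM in Ly6C-high and 207 ± 19.8 CPM in Ly6C-low libraries (SD, n = 3 each). Cd83, which opposes March1, was at 0.0239 TPM. The median log2 fold change of the 21 genes was 0.05.

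**Figure D3:**
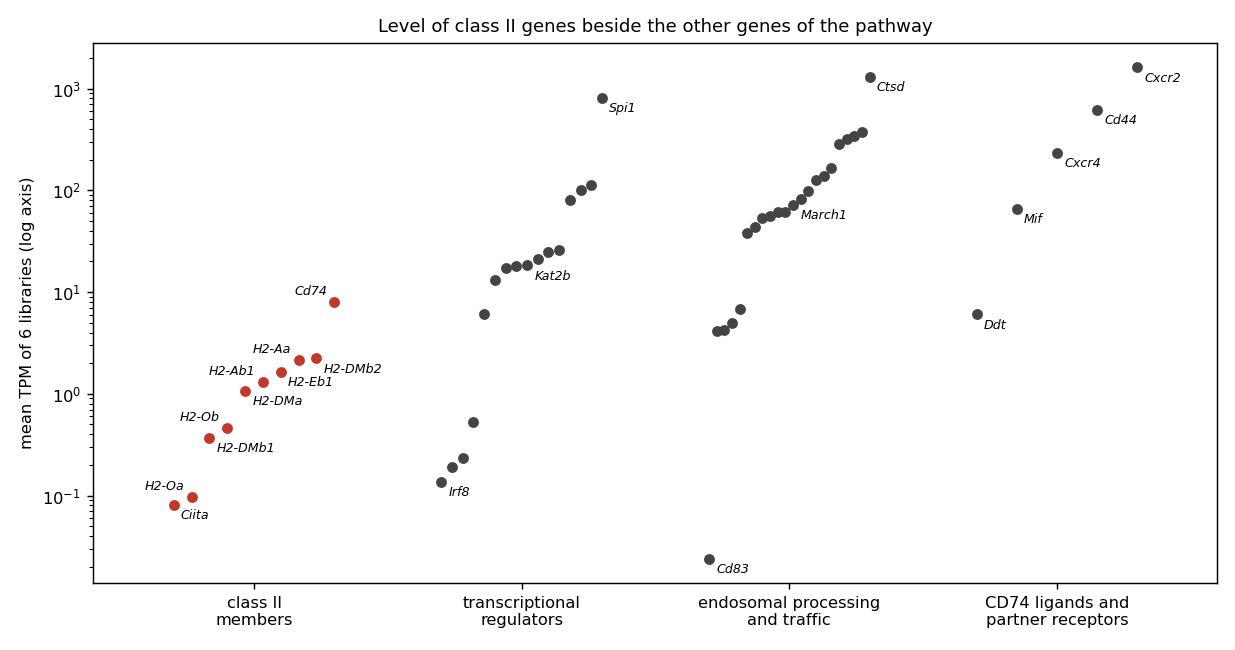
Mean TPM over the 6 libraries on a log axis, with 1 point for each gene, in 4 fixed lists; class II members are in red and the lowest, middle and highest genes of the longer lists are named. The 10 members lie between 0.0816 and 8.04 TPM, below the medians of 18.3, 66.9 and 235 TPM of the other lists.

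Outside antigen presentation, CD74 at the cell surface is a receptor for MIF and the related DDT, with CD44, CXCR2 and CXCR4 as partners. These 5 genes were all tested, 0 passed edgeR's adjusted p of 0.05, and 3 were lower in the Ly6C-high cells at an unadjusted p under 0.05, where 7.34% of all genes tested were. Mif measured 15.4, 16.6 and 13.6 CPM in Ly6C-high and 24.8, 25.9 and 17.7 CPM in Ly6C-low replicates 1, 2 and 3. Every Ly6C-high library was below every Ly6C-low library, with a fold of 0.668, a 95% interval of 0.530 to 0.841 and an adjusted p of 0.192. Without Ly6C-low replicate 3 Mif passed, at a log2 fold change of -0.73 and an edgeR adjusted p of 0.0235, where 22 of 11639 genes passed. Ddt measured 2.33, 1.92 and 1.13 against 2.89, 2.46 and 3.24 CPM, without overlap (fold 0.624, adjusted p 0.322), and Cxcr4 253 ± 42.1 against 340 ± 68.3 CPM (fold 0.743, adjusted p 0.304). Without the filter on low counts Mif and Cxcr4 passed (edgeR adjusted p 0.00215 and 0.00726). That setting called 439 of 20580 genes, against 4 of 11406 with the filter. It gave far smaller adjusted p-values, as for Ly6c1, at 3.48e-98 against 0.00273 with the filter (edgeR). Cd44 and Cxcr2 had folds of 1.17 and 1.11. Over the 41 genes tested of all these pathway lists, DESeq2 and voom called 0, and 7, 6 and 8 had an unadjusted p under 0.05 with edgeR, DESeq2 and voom. Over all genes tested those shares were 14.3%, 12.3% and 14.2%, so the counts lie near the background.

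The libraries held between 17192372 and 20973623 counts, and their markers were those of neutrophils. Ly6c1 and Ly6c2 were 8.38-fold and 7.46-fold higher in Ly6C-high libraries, and both passed the test (edgeR adjusted p 0.00273 and 0.00382). Without Ly6C-low replicate 3 they did not pass, at adjusted p of 0.062 and 0.0885, with log2 fold changes of 3.03 and 2.84. Ly6g measured 780 ± 85.6 CPM in Ly6C-high and 553 ± 137 CPM in Ly6C-low libraries (SD, n = 3 each), and S100a8 and S100a9 lay at 32400 CPM or above in every library. The neutrophil list summed to 121000 to 128000 CPM in Ly6C-high and 102000 to 114000 CPM in Ly6C-low libraries. On the first principal component, which held 32.8% of the variance, Ly6C-low replicate 3 stood apart at 38.02 and the remaining libraries ran from -19.65 to 3.91. Without it the log2 fold changes of H2-Aa, H2-Ab1, H2-Eb1 and Cd74 were 0.53, 0.19, 0.78 and -0.09, and 0 members passed.

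B cells carry class II constitutively, and their transcripts were present in every library. The 16 B cell markers summed to 23.7, 26.7 and 20.2 CPM in Ly6C-high and 22.7, 27.0 and 20.0 CPM in Ly6C-low replicates 1, 2 and 3, and 0 of the 16 were at 0 in all libraries. As for Cd74, replicate 2 was the highest and replicate 3 the lowest in each group, an order noticed after the values were known. Cd79a ran in that order too, at 1.27, 2.03 and 1.13 CPM in Ly6C-high and 1.2, 1.41 and 1.17 CPM in Ly6C-low replicates 1, 2 and 3. Of the 2 most abundant markers, Ighm was lowest in Ly6C-high replicate 1 and Bank1 highest in replicate 1 of both groups. The order was also that of Ngp, a neutrophil gene, and Pf4, a platelet gene. Ighm, the most abundant marker, measured 8.79 ± 1.26 against 9.34 ± 1.76 CPM, and Bank1 4.91 ± 0.775 against 3.77 ± 1.12 CPM (SD, n = 3 each). Cd79a, a subunit of the B cell receptor, measured 1.47 ± 0.484 against 1.26 ± 0.135 CPM. Of the 10 B cell markers tested 0 passed, and the groups overlapped in each. The part of B cell RNA in the levels of class II genes was not tested.

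Dendritic cell markers were fainter still. Their 16 genes summed to between 3.63 and 6.61 CPM in Ly6C-high and between 3.29 and 5.50 CPM in Ly6C-low libraries, with Cd300c and Clec10a at 0 in every library, and Clec9a and Ccr9 the most abundant. Ccr9 measured 0.942 ± 0.169 in Ly6C-high and 0.415 ± 0.0616 CPM in Ly6C-low libraries (fold 2.26, edgeR adjusted p 0.235). Of the 18 monocyte and macrophage markers, C1qa, C1qb and C1qc were at 0 in every library. The sum of that list was 399 to 420 CPM in Ly6C-high and 457 to 489 CPM in Ly6C-low libraries, without overlap, and most of it was Csf1r at 342 ± 1.51 and 388 ± 34.8 CPM; Nr4a1 came next. Of the 12 tested 0 passed, 4 were higher in Ly6C-high at an unadjusted p under 0.05 with edgeR (Ccr2, Cx3cr1, F13a1 and Ms4a6c) and 1 was lower (Treml4), where 6.92% of all genes tested were higher and 7.34% lower. Ms4a6c measured 1.85 ± 0.173 against 0.899 ± 0.247 CPM (SD, n = 3 each). Cx3cr1, a chemokine receptor of monocytes, measured 0.688, 1.33 and 0.636 CPM in Ly6C-high and 0.150, 0.157 and 0.159 CPM in Ly6C-low replicates 1, 2 and 3, with an edgeR adjusted p of 0.153. Eosinophil and basophil markers summed to 39.1 to 50.6 against 67.0 to 80.5 CPM, also without overlap, led by Siglecf and Ccr3. Of the 8 tested 0 passed with edgeR, and 5 were lower in Ly6C-high at an unadjusted p under 0.05, each without overlap between the groups. Over all genes tested 7.34% were lower at that p and 10.9% were apart in that direction. The 5 were Siglecf, Ccr3 and the mast cell and basophil protease genes Mcpt8, Prss34 and Cpa3. Their folds were 0.714, 0.558, 0.142, 0.330 and 0.302 in that order. T and NK cell markers ran from 42.6 to 66.7 against 35.1 to 48.4 CPM, followed after Cd3d by Cd8a. Most of the sum was Cd3d, at 49.4 ± 11 and 37.3 ± 5.76 CPM (SD, n = 3 each). The genes Cd3e and Cd3g were far lower, with means of 0.468 and 0.484 CPM in Ly6C-high and 0.488 and 0.172 CPM in Ly6C-low libraries. The sum therefore describes Cd3d more than the list. Platelet and red cell genes, led by Hbb-bs and Hba-a2, ran from 253 to 916 against 592 to 897 CPM. The part of these cells in the class II levels was not tested.

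**Figure D4:**
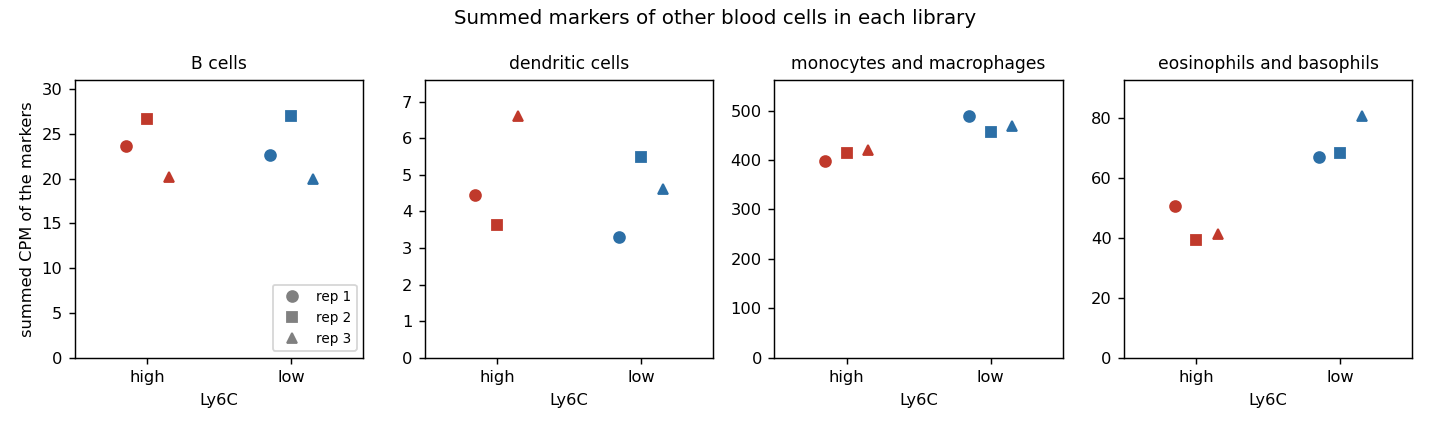
Summed CPM of fixed marker genes of 4 other kinds of blood cell in each library, Ly6C-high in red and Ly6C-low in blue, with symbols for the replicate. B cell sums lie between 20.0 and 27.0 CPM in both groups with the same order of replicates, and the groups are apart for the monocyte and the eosinophil and basophil sums.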

How the data were processed

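Per the labels' protocols and the design text, Ly6G+ blood cells were sorted by Ly6C and poly(A) libraries were made with a strand-marking kit and read from 1 end. Per the submitters' processing notes, the authors ran kallisto with GRCm39 as the build; the sources used here give no version, index or strand setting. The deposited tables give estimated counts, TPM and effective length for 117486 transcripts, per the file headers. The estimated counts summed to between 17192372 and 20973623 per library.

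Transcripts were assigned to genes by identifier with GENCODE M21 (99.04% matched, with 99.747% to 99.767% of counts); its build, GRCm38, is not that of the files, so promoter coordinates are those of the RefSeq table. Counts were summed per gene and rounded. The test was that of edgeR 4.0.16 under R 4.3.3 (filterByExpr, TMM, robust quasi-likelihood F test, group as the term, Benjamini-Hochberg over 11406 genes, threshold 0.05). The step was tested on simulated counts. Between libraries of a group the chi-square per gene was 14.3 to 48.2. Each library was taken as its own replicate, though this spread does not show that each came from its own mouse. Alternatives were a replicate block, DESeq2 1.42.0 size factors and Wald test, limma 3.58.1 voom, no filter, length-scaled TPM, each library left out, H2-DMb1 and H2-DMb2 added, TPM levels, and, added after the data were seen, protein-coding transcripts alone. Members and lists were chosen with earlier results of these data known. All members are named, with, from each list, the 3 genes of smallest p or the 2 most abundant markers. B2m, Rfx5, Rfxap, Rfxank, Nfyc, Irf8, Spi1, Ctsd, March1, Cd83, Cd44, Cxcr2, Cd79a, Ccr2, Cx3cr1, F13a1, Ms4a6c, Treml4, Mcpt8, Prss34, Cpa3, Cd3e, Cd3g, Ngp and Pf4 were named after their values were seen. For Cd74, and for the mean of H2-Aa, H2-Ab1 and H2-Eb1, the 5 genes of at least 1 CPM with the nearest profile (log2 CPM, prior count 2) are also named.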

Additional observations from a re-analysis of the deposited data

How the results depend on the processing

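The count of class II members past the threshold was 0 under every alternative run, though an unadjusted p under 0.05 was reached by H2-Eb1 with the block (0.0404), without the filter (0.0367), with length-scaled TPM counts (0.0442) and without Ly6C-high replicate 1 (0.0464) or 3 (0.0264), and by H2-Aa without Ly6C-high replicate 3 (0.0319). The count of all genes, 4, was 61 with the replicate number as a block, 439 without the filter on low counts, 126 with the DESeq2 Wald test and 2 with length-scaled TPM counts, and it ran from 2 (without Ly6C-high replicate 2 or 3, or Ly6C-low replicate 2) to 22 (without Ly6C-low replicate 3) with 1 library left out. Of the other pathway genes 0 passed, against 2 without the filter (Mif and Cxcr4) and 0 to 1 with 1 library left out (Mif, without Ly6C-low replicate 3). The labels do not say whether the replicate numbers pair the libraries, and the values did not settle it. Deviations of same-numbered libraries correlated at 0.24, -0.04 and 0.24 for replicates 1, 2 and 3. The other pairs across the groups ran from -0.31 to 0.11, and not every library correlated best with its own number. Under the block H2-Eb1 had a log2 fold change of 0.76 and an edgeR adjusted p of 0.253. DESeq2 gave 6 of the 7 members no adjusted p. With 1 library left out the log2 fold change ran from 0.18 to 0.81 for H2-Aa, 0.36 to 1.01 for H2-Eb1, 0.10 to 0.53 for H2-DMb2 and 0.25 to 1.08 for H2-Ob. It changed sign for H2-Ab1 (-0.23 to 0.42), Cd74 (-0.09 to 0.15) and H2-DMa (-0.62 to 0.15). With protein-coding transcripts alone 4 members were tested and H2-Eb1 was not among them. Depth limits every member but Cd74, with 67 counts or fewer per library.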

Other observations

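Over the 6 libraries the genes whose profile came nearest to that of Cd74, among 9414 genes compared, were Ehmt2, Pus10, Zfp157, Pgm1 and Pla2g6, with root mean square differences of 0.033 to 0.063 on the log2 CPM scale. For the mean profile of H2-Aa, H2-Ab1 and H2-Eb1 they were Cep131, P2rx1, Cisd3, Ikzf3 and Mpi, at 0.139 to 0.194. Cd74 itself ranged over 0.46 on that scale and the mean of the 3 chain genes over 1.30. These are descriptions of 6 libraries, and no shared control was tested.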
